A study of Rattus norvegicus with 2 samples.

Results

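Fibroblast and matrix genes are described here for the duodenum of 1 control rat and 1 immobilized rat. The set is 10 genes, namely Col1a1, Col1a2, Col3a1, Bgn, Dcn, Sparc, Fn1, Vim, Pdgfra and Serpinh1, out of 4736 genes with a probe set of a single gene symbol. All 28 probe sets that the array annotation gives to these genes were taken. A probe set is a group of short oligonucleotides on the array that reads 1 transcript sequence, and its value is a signal in array units. Both animals were male Wistar rats of 15 weeks. The control lived in a metabolic cage for 2 weeks, and over the same 2 weeks the other rat was held in an immobilization cage. Total RNA of the duodenal mucosa went to 1 rat U34A array (Affymetrix) per animal. The sample labels call the source duodenal epithelial cells, and fibroblasts were not isolated. With 1 array per group no difference between the animals can be tested, no p-value is given, and nothing shows how far 2 rats of the same group would differ.

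Fibroblasts lie in the lamina propria, the connective tissue under the gut epithelium, and around the crypts. They secrete type I and type III collagen, whose chains wind into triple helices in the endoplasmic reticulum and assemble outside the cell into fibrils. Small proteoglycans and glycoproteins coat or link these fibrils, and PDGF receptor alpha marks several fibroblast populations of the intestinal wall.

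The sequences before the gene start are shown for the genes with the largest differences at their brightest probe set (Vim, Pdgfra and Serpinh1). Col1a2, a collagen gene that differed little, is shown beside them. The RefSeq table of build GRCr8 held a promoter window for 5 of the 10 genes. Whether the gene start in that table is the start of transcription was not tested, so a window may hold transcribed bases. Each line gives the 250 bases before the start of the gene in that table, 5′ to 3′ on the strand of the gene, with matches to the TATA box (TATAAA), the CCAAT box (CCAAT) or the GC box (GGGCGG) on either strand in capitals.
Vim, chr17:81577011-81577260, plus strand: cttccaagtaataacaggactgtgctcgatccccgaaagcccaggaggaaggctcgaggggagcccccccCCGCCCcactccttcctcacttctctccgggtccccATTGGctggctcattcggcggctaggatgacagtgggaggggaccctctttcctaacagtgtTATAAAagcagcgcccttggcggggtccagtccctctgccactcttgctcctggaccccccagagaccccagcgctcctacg
Pdgfra, chr14:33408517-33408766, minus strand: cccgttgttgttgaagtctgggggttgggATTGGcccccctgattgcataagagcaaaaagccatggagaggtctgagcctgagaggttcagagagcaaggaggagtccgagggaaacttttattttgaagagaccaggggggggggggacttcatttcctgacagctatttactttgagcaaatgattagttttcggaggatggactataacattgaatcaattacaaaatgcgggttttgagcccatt
Serpinh1, chr1:163062977-163063226, minus strand: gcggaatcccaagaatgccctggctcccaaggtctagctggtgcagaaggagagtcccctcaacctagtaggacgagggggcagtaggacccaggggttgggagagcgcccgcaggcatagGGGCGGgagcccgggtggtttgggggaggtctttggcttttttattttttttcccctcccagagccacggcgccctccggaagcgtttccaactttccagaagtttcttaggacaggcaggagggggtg
Col1a2, chr4:33518307-33518556, plus strand: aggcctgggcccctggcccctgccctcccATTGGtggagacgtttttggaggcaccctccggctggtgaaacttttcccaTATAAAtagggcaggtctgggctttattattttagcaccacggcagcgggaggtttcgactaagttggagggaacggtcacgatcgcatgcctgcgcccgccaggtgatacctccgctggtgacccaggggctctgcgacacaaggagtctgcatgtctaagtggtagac
The Vim window held all 3 motifs, with TATAAA starting 82 bases, CCAAT on the reverse strand 144 bases and GGGCGG on the reverse strand 180 bases before the gene start. Col1a2 held TATAAA at 170 bases and a reverse CCAAT at 221 bases, and Pdgfra held a reverse CCAAT at 221 bases. Serpinh1 held GGGCGG at 129 bases. The window of the remaining gene of the table, Sparc, held none of these letters. Among all 33469 promoters of the table, 12.9% held TATAAA, 34% CCAAT and 30.5% GGGCGG in the same window, so these are common sequences, and a match is a description of the letters.

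As a group the 10 genes did not move one way in the immobilized rat. Vim and Pdgfra were higher by nearly 2-fold, Bgn and Col3a1 were higher by less, Col1a1, Sparc and Serpinh1 were lower, and Col1a2, Dcn and Fn1 were close to equal at the probe set that stands for each gene. The probe set with the highest mean signal represented a gene, and signals of the immobilized rat were multiplied by 1.016 so that the typical probe set had a log2 ratio of 0. A ratio is the immobilized over the control signal and was taken only where both exceeded a floor of 39.9, the median of all signals. All 10 genes passed this floor on both arrays, against 53.3% of all genes, and 14 of their 28 probe sets did, against 48.5% of all probe sets with 1 gene symbol. Most signals were low, with both values under 200 for 26 of the 28 probe sets. In bulk tissue fewer fibroblasts and less RNA per fibroblast cannot be told apart.

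**Figure D1:**
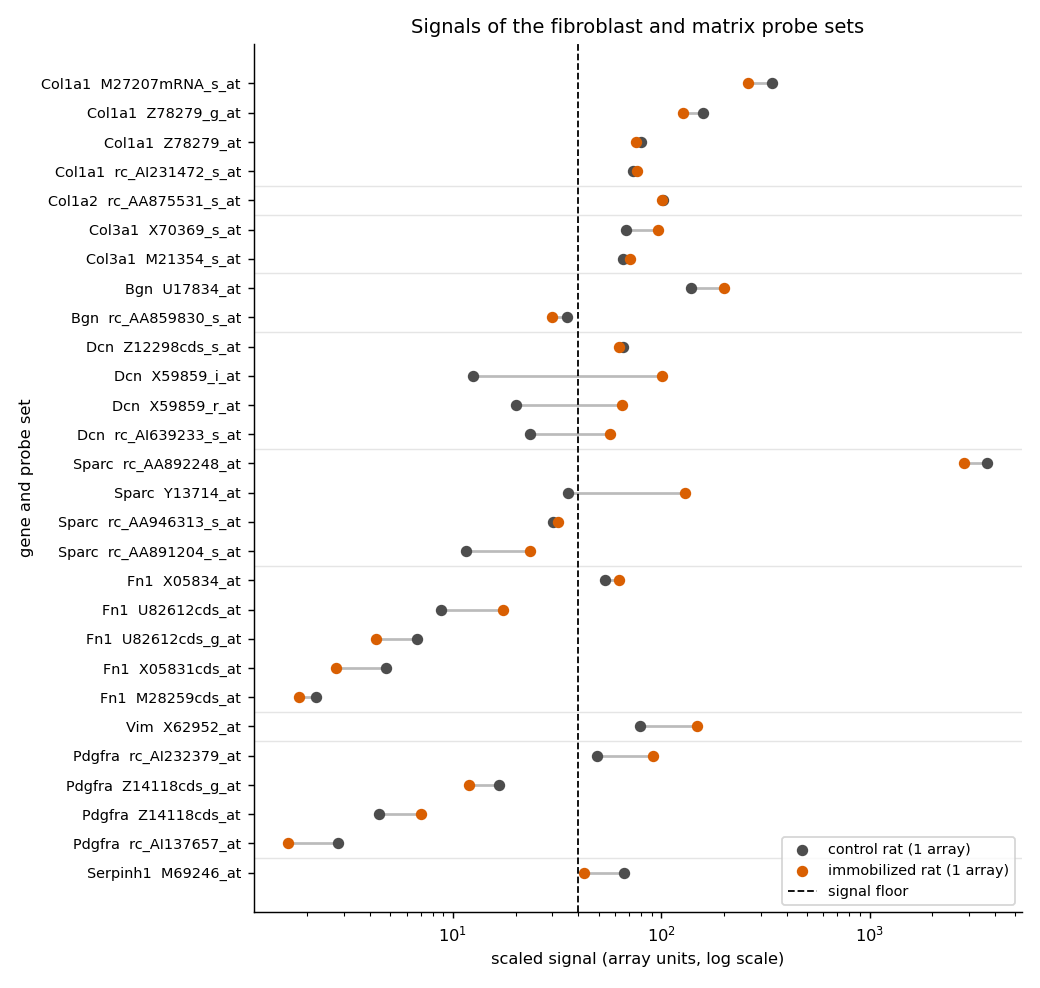
Scaled signal of each of the 28 probe sets (rows, grouped by gene) on the control array (grey) and on the immobilized rat's array (orange), in array units on a log axis, with 1 array per group and the floor of 39.9 as a dashed line. Vim, 1 Bgn and 1 Pdgfra probe set lie above the floor and are higher in the immobilized rat, while 3 Dcn probe sets and 1 Sparc probe set cross the floor between the arrays.

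Type I collagen is built from the products of Col1a1 and Col1a2, and type III collagen from Col3a1, the chain of fine fibrils in soft tissue. The brightest Col1a1 probe set (M27207mRNA_s_at) read 339.8 in the control rat and 259.9 in the immobilized rat, 1.31-fold lower. A second (Z78279_g_at) read 159.1 and 127.7, 1.25-fold lower. The remaining Col1a1 probe sets were nearly level, with 79.7 and 75.4 at Z78279_at and 72.9 and 76.5 at rc_AI231472_s_at. The 4 log2 ratios thus ran from -0.39 to 0.07. For Col1a2 the only probe set read 101.5 in the control rat and 100.7 in the immobilized rat, a log2 ratio of -0.01. Col3a1 read 68.0 and 96.4 at one probe set (X70369_s_at), 1.42-fold higher, and 65.4 and 70.8 at the other (M21354_s_at), 1.08-fold higher. Over the 7 collagen probe sets, 3 ratios were above 0 and 4 below, with a median of -0.01.

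Serpinh1 encodes HSP47, the chaperone of the endoplasmic reticulum that binds newly made collagen. Its only probe set read 66.5 in the control rat and 42.7 in the immobilized rat, 1.56-fold lower, a log2 ratio of -0.64. It was the lowest ratio of the 10 genes, and the signal in the immobilized rat lay just above the floor of 39.9. Serpinh1 and the brightest Col1a1 probe set were both lower, whereas Col3a1 was higher.

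Bgn and Dcn encode biglycan and decorin, small leucine-rich proteoglycans that bind collagen fibrils and growth factors. Bgn read 138.7 in the control rat and 199.8 in the immobilized rat at U17834_at, 1.44-fold higher. Its other probe set stayed under the floor on both arrays (35.4 and 29.98). The brightest Dcn probe set (Z12298cds_s_at) was nearly level, with 65.5 and 62.9 and a log2 ratio of -0.06. The other 3 Dcn probe sets were under the floor in the control rat and above it in the immobilized rat. X59859_i_at read 12.5 and 101.3, at least 2.54-fold higher when the control is set at the floor. X59859_r_at read 20 and 65.1, at least 1.63-fold higher, and rc_AI639233_s_at read 23.4 and 56.5, at least 1.41-fold higher. The direction for Dcn therefore depends on the probe set, and the array maker's letters i and r in a name mark sets for which its usual probe selection rules were not fully met.

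Sparc encodes osteonectin, a collagen-binding glycoprotein, and Fn1 encodes fibronectin, which links cells to the matrix through integrins. The Sparc probe sets disagreed in both level and direction. At rc_AA892248_at the signal was 3676 in the control rat and 2830 in the immobilized rat, 1.30-fold lower. At Y13714_at it was 35.8 and 130.2, at least 3.26-fold higher. The other 2 Sparc probe sets were under the floor on both arrays, with 30.1 and 32.1 at one and 11.5 and 23.4 at the other. The control signals annotated to this single gene spanned 11.5 to 3676, and whether the brightest probe set reads Sparc was not tested. Fn1 read 53.6 and 62.5 at X05834_at, 1.17-fold higher. Its other 4 probe sets lay between 2.2 and 8.8 in the control rat and between 1.83 and 17.4 in the immobilized rat, all under the floor.

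Vim encodes vimentin, the intermediate filament protein of fibroblasts, endothelium and leukocytes, and Pdgfra encodes the receptor for platelet-derived growth factors that drive fibroblast growth. Vim, with a single probe set, read 79.1 in the control rat and 148.2 in the immobilized rat, 1.87-fold higher, the highest ratio of the 10 genes at 0.91 on the log2 scale. Pdgfra read 49.0 and 91.2 at rc_AI232379_at, 1.86-fold higher, a log2 ratio of 0.90. Its other 3 probe sets were under the floor on both arrays, from 2.8 to 16.7 in the control rat and from 1.63 to 12.0 in the immobilized rat. The difference of Pdgfra thus rests on 1 of its 4 probe sets, and that of Vim on its only one.

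**Figure D2:**
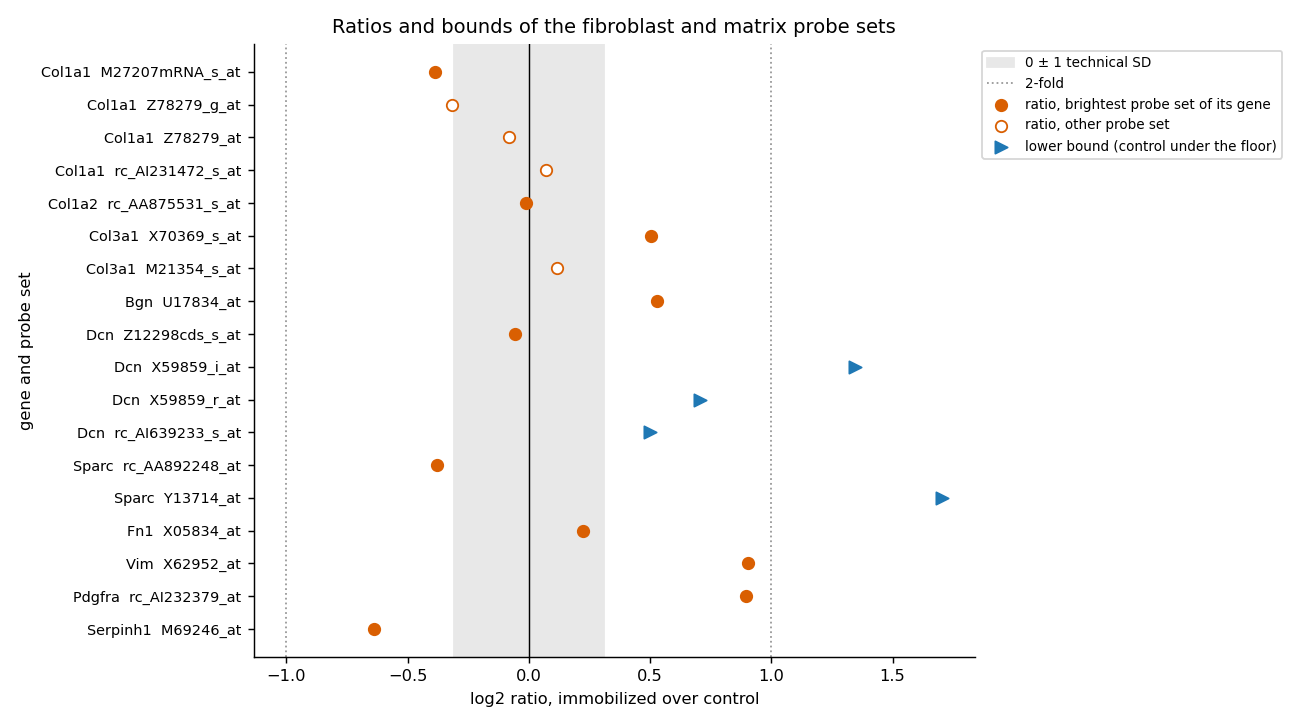
Log2 ratio of immobilized over control (horizontal axis) for the 14 probe sets above the floor on both arrays (circles, filled for the brightest probe set of a gene) and lower bounds for the 4 above it in the immobilized rat only (triangles), with 1 array per group. The grey band is 0 ± 1 technical SD (0.31), and only 2 bounds, 1 of Dcn and 1 of Sparc, lie beyond the dotted 2-fold lines.

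Of the 10 genes, 0 differed by at least 2-fold in either direction, where 2.69% of the 2524 genes with a ratio did. At 1.5-fold, 2 genes were higher (Vim and Pdgfra; 8.36% of all genes) and 1 was lower (Serpinh1; 4.87% of all genes). These 3 of 10 stand beside 13.2% of all genes in either direction, and beside 16% among the 1438 genes with a mean signal of 50 to 300, the range that holds 9 of the 10. The only spread these data give is that between probe sets of a gene on the same 2 arrays, called technical here. The log2 ratios of probe sets that share a gene had an SD of 0.31 over 696 genes, 0.33 where the mean signal was under 100 and 0.26 where it was over 300. Vim, Pdgfra and Serpinh1 lay beyond 2 technical SD (0.62), as did 11.2% of all genes. With the SD of signals under 100, where 2 SD came to 0.67, Serpinh1 at -0.64 lay inside. By the SD over all signals, Col1a2, Dcn and Fn1 lay within 1. This SD leaves out the spread between animals and whatever shifts all probe sets of a gene alike on 1 array. It covers only probe sets above the floor on both arrays. The 10 genes had a median log2 ratio of 0.11 (range -0.64 to 0.91), with 5 above 0 and 5 below, beside -0.01 over all genes and 49.4% of genes above 0. With all 14 probe sets counted the median was 0.03, with 7 above 0 and 7 below, beside 49.7% of all probe sets above 0.

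Among probe sets above the floor on 1 array only, the 4 of these genes were all on the immobilized rat's side, where 47.5% of the 442 such probe sets of the whole array lay. Their bounds reached 2-fold higher for 2 of the 4. Over the whole array 13 probe sets did, all among the 210 on the immobilized rat's side (2.94% of the 442 on either side). Of the 4, 3 read the same gene, Dcn, and are not independent of each other.

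**Figure D3:**
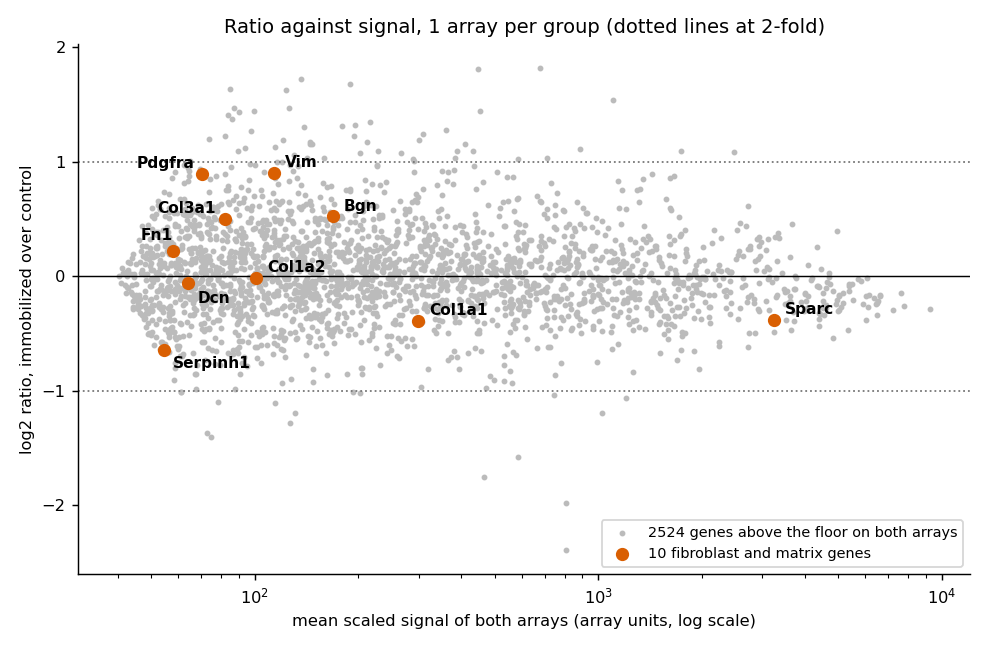
Log2 ratio of immobilized over control against the mean scaled signal (array units, log axis) for 2524 genes (grey) and the 10 fibroblast and matrix genes (orange), 1 array per group, dotted lines at 2-fold. The 10 genes lie inside the cloud of the other genes and between -0.64 and 0.91, and 9 of them have a mean signal between 50 and 300.

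Further genes of the matrix, of fibroblast signals and of intermediate filaments other than Vim were taken from 9 lists arranged by role. Probe sets existed for 137 such genes. Both arrays exceeded the floor for 51 of them, where 53.3% of all genes passed it. Of the 51 genes, 13 were higher and 38 lower, with a median log2 ratio of -0.15. The filament list, which holds epithelial keratins and no matrix genes, gave 7 of the 51, with 1 higher and 6 lower. Among all genes with a ratio 49.4% were higher, the share that stands beside the counts of every list below. Of the 51 genes, 1 differed by 2-fold (2.69% of all genes). In the same comparison the hybridisation spike-ins, RNAs added at the array step, had a median of -0.21, lower for 7 of 9 probe sets, and enterocyte markers one of -0.24. The part of these shifts in the lists was not tested. After quantile normalization and after loess the 9 lists together kept counts of 13 and 38 (medians -0.17 and -0.13). The enterocyte median moved to -0.10 and -0.11. With the floor at the 30th percentile 33 of 89 genes of these lists were higher and 56 lower (median -0.11). At the 70th 6 of 23 were higher and 17 lower (median -0.14).

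Other collagen chains were mostly under the floor, and the pair above it gave 74.8 and 73.6 for Col5a1, a chain of type V collagen, and 58.8 and 41.3 for Col10a1, 1.43-fold lower. Enzymes that fold and modify collagen were higher for 2 of 4 genes and lower for 2. The counts were 3 and 1 after quantile normalization or loess, and 6 and 2 with the floor at the 30th percentile. They were P4hb, the disulfide isomerase subunit of prolyl hydroxylase (5531 and 5211), Ppib, a prolyl isomerase (1433 and 1579), the lysyl hydroxylase Plod3 (301.2 and 366.9) and Pcolce, an enhancer of procollagen processing (49.5 and 43.1). Plod1, another lysyl hydroxylase gene, passed the floor in the immobilized rat only (38.5 and 56.5). Proteoglycan and hyaluronan genes were lower for 4 of 4 with a ratio, out of 20 on the array, with a median of -0.33. With the floor at the 30th percentile 3 were higher and 7 lower (median -0.15), and Bcan and Cd44 passed the reported floor in the immobilized rat only. The membrane proteoglycan Sdc1 was 1.46-fold lower (736.5 to 505.3) and Sdc4 1.31-fold lower (1458 to 1117), and the hyaluronidase Hyal2 and the granule proteoglycan Srgn had log2 ratios of -0.22 and -0.28. Syndecan-1 and syndecan-4 are also made by epithelium.

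Few of the other matrix glycoproteins passed the floor. Sparcl1, a relative of Sparc, read 93.1 in the control rat and 147.3 in the immobilized rat, 1.58-fold higher. Fbln5, an elastic fibre protein, was 1.26-fold higher (56.0 to 70.7), and Eln, which encodes elastin, read 19.5 and 85.6, at least 2.14-fold higher. Sparcl1 and Fbln5 were the 2 genes of 14 in this list with a ratio, and Eln has a bound only. In the basement membrane, 1 of 4 genes was higher and 3 lower, with Lama3, a laminin chain of epithelial basement membranes, 2.43-fold lower (179.2 to 73.8). Lamc1 and Lamb2 were level at -0.09 each, and Agrn, agrin, at 0.09 (0.40 at another probe set).

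Proteases and inhibitors of the matrix were lower for 6 of 7 genes, none at 1.5-fold. Adam10 was 1.45-fold lower, Mmp14, a membrane metalloproteinase that cleaves collagen, was 1.31-fold lower (398.6 to 303.6), Plaur had a log2 ratio of -0.16, and the metalloproteinase inhibitor Timp2 read 125.4 and 125.0. Matrix receptors were lower for 5 of 7, with log2 ratios of -0.15 for the integrin subunit Itgb1, 0.17 for Itgb4, -0.41 for the integrin partner Cd151 and -0.20 for the collagen receptor Ddr1 (0.42 at another of its probe sets). Genes of growth factor signals to fibroblasts, which include receptors, binding proteins and Smads beside the factors, were lower for 10 of 14. The growth factor gene Fgf1 was 1.43-fold lower (168.2 to 117.3). Smad2 was at -0.18 (0.31 at another probe set), the receptor gene Bmpr1a at -0.04 and the binding protein gene Igfbp3 at 0.20. The second PDGF receptor gene, Pdgfrb, stayed under the floor in both rats (39.2 and 23.6). In the list of intermediate filament genes other than Vim 6 of 7 were lower. Among them were the epithelial keratins Krt8 (-0.24), Krt20 (-0.54) and Krt19 (-0.17) and the lamin gene Lmna (-0.07). The gene that was higher, Plec (0.27), encodes plectin, a linker of filaments and not a filament protein.

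**Figure D4:**
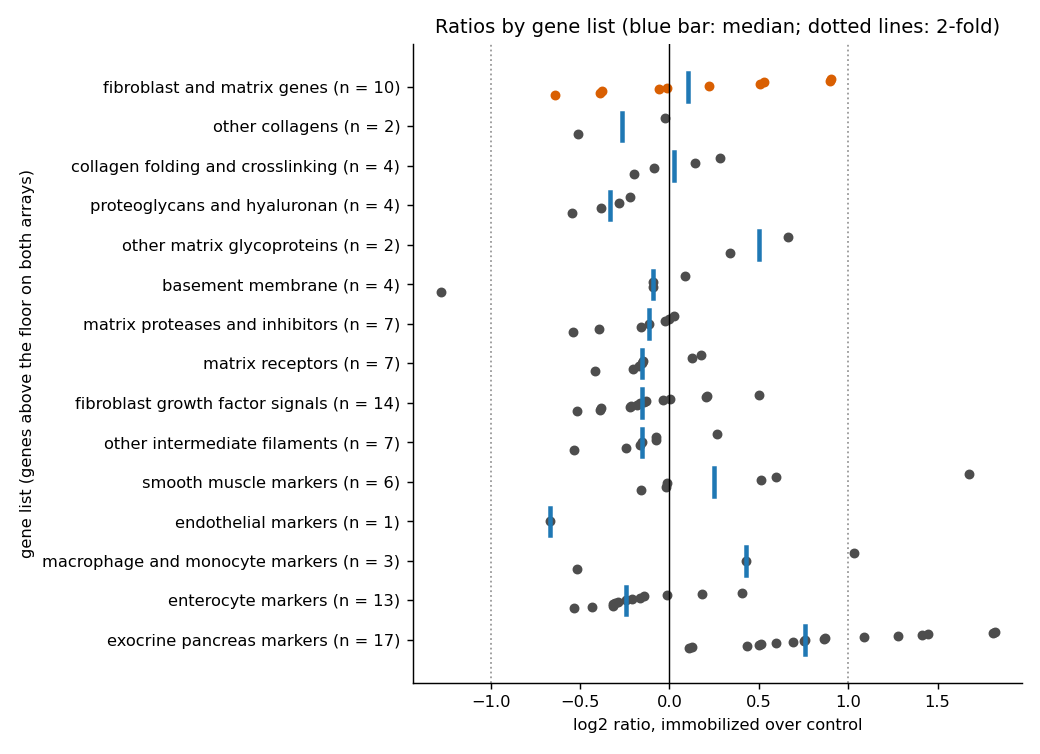
Log2 ratio of immobilized over control (horizontal axis) for genes with a ratio, by list (rows, with the number of genes), 1 array per group. Points are genes, blue bars are list medians, and dotted lines mark 2-fold; the fibroblast and matrix genes (orange) spread from -0.64 to 0.91 around a median of 0.11.

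Markers of other cells, some of which express some of the 10 genes, did not all go one way. Smooth muscle makes Vim and several collagens, and of 10 markers on the array 6 passed the floor on both sides, 3 higher and 3 lower. Acta2, the smooth muscle actin also found in myofibroblasts, was 3.20-fold higher (90.3 to 288.9) while another of its probe sets had -0.13 on the log2 scale. Myh11, smooth muscle myosin, was 1.51-fold higher, Actg2 had a log2 ratio of 0.51, and Cnn1 passed the floor in the immobilized rat only (27.0 and 54.0). Myl9 was at -0.02 (0.79 at another probe set), Tagln at -0.02 and Tpm1 at -0.16. The muscle filament gene Des was under the floor (10.3 and 9.45). The summed signal of this list was 1520 in the control rat and 1714 in the immobilized rat, and 1430 and 1425 without Acta2. Most of each sum was Tpm1, which read 1062 in the control rat and 951.1 in the immobilized rat. For macrophages 3 of 7 markers were above the floor, with Lyz2, lysozyme, 2.05-fold higher, C1qb 1.34-fold higher and Cd14 1.43-fold lower. The sums were 959.8 and 1534, or 494.8 and 581.2 without Lyz2. C1qc, a gene outside the list, was lower (176.7 to 135.2, a log2 ratio of -0.39). The receptor gene Csf1r was under the floor (12.1 and 19.8). Endothelial markers had 1 of 9 genes with a ratio (Nos3, 1.59-fold lower) and sums of 285.3 and 226.8. AJ011115_g_at, which also stands for Nos3, was nearly level (63.7 in the control rat, 58.3 in the immobilized rat, -0.13 in log2 units). Pecam1 (13.1 and 31.8) and Kdr (4.4 and 10.2) were under the floor. Flt1 (50.2 and 33.5), Selp (52.1 and 38.4) and Edn1 (41.5 and 27.2) passed the floor in the control rat only. Of 9 glia and neuron markers 0 had a ratio, with sums of 198.4 and 156.9. Exocrine pancreas markers were higher for 17 of 17 genes (49.4% of all genes), with sums of 7717 and 14468. The difference reached 2-fold for 6 of them (Ctrb1, Sycn, Clps, Gp2, Pla2g1b and Amy2a3), where 2.69% of all genes did in either direction. Enterocyte markers were lower for 11 of 13, with sums of 68793 and 59262. After quantile normalization or loess 9 of them were lower and 4 higher. No marker of these lists had a signal of 0. The part of these cells in the ratios of Vim, Pdgfra and the other genes was not tested.

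**Figure D5:**
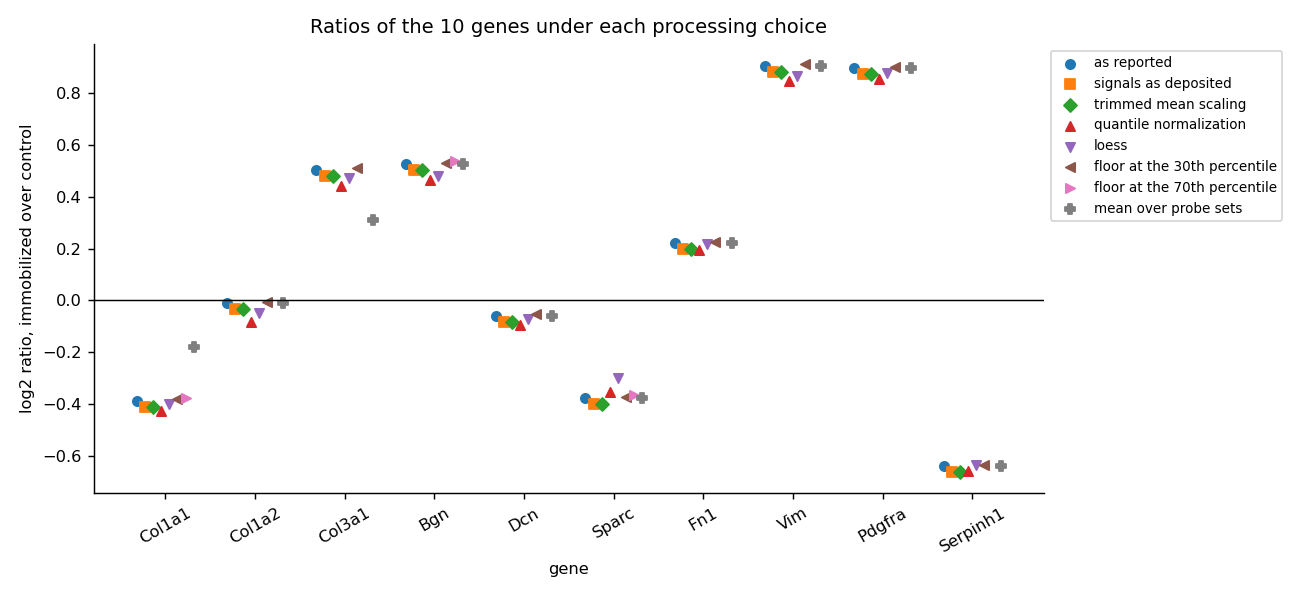
Log2 ratio of immobilized over control (vertical axis) for each of the 10 genes (horizontal axis) under 8 processing settings (symbols), 1 array per group. Vim stays between 0.85 and 0.91, Pdgfra between 0.85 and 0.90 and Serpinh1 between -0.66 and -0.63 in the 7 settings that give them a ratio.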

How the data were processed

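Total RNA of duodenal mucosa was measured on 1 rat U34A array per group. The authors deposited 1 linear signal intensity for each probe set. Per the series' design text they used version 4.0 of Affymetrix software, filtering and normalization included, and the submitters' processing notes name MAS5, so the signal algorithm is unsettled. The 2% trimmed mean signal was 216.0 and 215.9. Of 8799 probe sets, 59 were array controls and 7006 had 1 gene symbol, updated through the gene ID of RefSeq (GRCr8). Genes took the probe set with the highest mean signal. The members and lists were chosen with earlier results of these data known. All probe sets of the 10 genes are named. Of each of the 9 lists arranged by role, the 4 genes with the highest mean signal among those with a ratio are named, or all where fewer had one. Any gene at 2-fold is named in every list. The brightest enterocyte and exocrine pancreas markers are not all named. Some markers of the cell type lists, C1qc, Plec, Pdgfrb and the genes under the floor were named after their values were seen. Alternatives were other scalings (as deposited, trimmed mean, quantile, loess of span 0.3), the mean over probe sets, a floor at the 30th or the 70th percentile, and thresholds of 1.5-fold and 3-fold. Ratios were tested on simulated data. Detection calls and protein sequences were not used here. The number of arrays limits the precision. Python 3.11.15, numpy 2.4.6, pandas 2.3.3, statsmodels 0.14.6 and matplotlib 3.10.9 were used.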

Additional observations from a re-analysis of the deposited data

How the results depend on the processing

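The ratios of the 10 genes were recomputed under 7 alternatives of scaling, floor and probe set choice. All 63 recomputed ratios moved by less than the technical SD of 0.31, but most of the alternatives shift every ratio by the same amount, and averaging probe sets can change only Col1a1 and Col3a1. Quantile normalization and loess alone could move the genes differently. The number at 2-fold stayed at 0 in these and with probe sets in place of genes. With bounds of the representing probe sets counted and at 3-fold it could only be 0. All 10 representing probe sets have ratios and no bounds, and none reached 2-fold. The number was 3 at a threshold of 1.5-fold, and 2 with all probe sets and their bounds counted, an alternative added after seeing the data. The median of 0.11 became -0.37 with the floor at the 70th percentile (127.6), where only Bgn, Col1a1 and Sparc kept a ratio. It lay between 0.06 and 0.11 in the other 6 alternatives and at 0.22 without Sparc. With the floor at the 30th percentile (12.6), Sparc Y13714_at had a ratio of 3.65-fold higher, Dcn X59859_r_at 3.27-fold, Dcn rc_AI639233_s_at 2.42-fold and Dcn X59859_i_at a bound of at least 8.04-fold, all resting on control signals of at most 35.8. Of 120 counts of higher or lower genes in 15 lists, 89 stayed within 1.5 times. With 1 array per group no array could be left out, and no paired analysis was possible because each group has 1 animal.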

Other observations

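Of the 137 genes in the 9 lists arranged by role, 12 exceeded the floor on 1 array only, 7 in the immobilized rat and 5 in the control rat. That is 8.76% of them, beside 303 of all 4736 genes (6.4%), 144 in the immobilized rat and 159 in the control rat. Besides Eln, the 7 held Tnc, which encodes the matrix glycoprotein tenascin-C (32.6 and 72.7, at least 1.82-fold higher), the growth factor gene Tgfb1 (21.2 and 54.0, at least 1.35-fold higher) and the lysyl hydroxylase gene Plod1 (38.5 and 56.5, at least 1.41-fold higher). Cd44, Bcan and Itga1 had bounds of 1.21-fold, 1.14-fold and 1.09-fold. In the other direction Fmod, Vtn, Fgf2, Tgfbr3 and Nefl had bounds of at most 1.15-fold. The genes of the lysyl oxidases Lox (7.5 and 21.1) and Loxl1 (13.5 and 31.3), which crosslink collagen and elastin, were under the floor of 39.9 on both arrays. These genes were named after their values were seen.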
